A study of Mus musculus with 2 samples.

Results

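The G2 and mitosis genes described here are 40 protein-coding mouse genes whose products act from late DNA replication to the end of cell division. They were taken by symbol from the gene list of the count tables, where 40 of 40 were found among 32285 genes, and the rule uses no measured value. The study sequenced single cells of bone marrow sorted as natural killer progenitors (NKP) by a gate that kept CD122+ cells and left out those with Ncr1, NK1.1, c-kit, Sca-1 or lineage markers. It compared wild-type C57BL/6 mice (WT) with mice lacking both copies of Irf4, a transcription factor of lymphocytes (Irf4-/-). Each genotype had 1 library, and the number, age and sex of the mice, any pooling and the Irf4 allele were not stated in the labels. With 1 library per genotype there is no replicate check, no test could be made, and the 95% intervals below cover counting error only.

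Cells copy their DNA in S phase and build up the mitotic machinery in G2. Cyclin-dependent kinase 1 with its cyclins then starts mitosis, the spindle checkpoint holds chromosomes until all are attached, and a ubiquitin ligase called the anaphase-promoting complex destroys the cyclins to end it. Most of these genes are transcribed in a wave late in the cycle and are nearly silent in resting cells, so their transcripts mark dividing cells in lymphoid tissue. Promoters of such genes are known for CCAAT boxes and for a cell cycle homology element, TTTGAA or TTTAAA, read by the DREAM and B-Myb complexes.

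Counts of unique molecular identifiers (UMIs, 1 per captured transcript) came from 7955 and 12367 kept cells of the libraries labelled Irf4-/- and WT, at a median of 9540 and 7125 UMIs per cell. Throughout, paired values give the library labelled Irf4-/- first. Irf4 itself had 803 and 287 UMIs, or 9.77 and 3.04 CPM (UMIs scaled to 1000000 of the cells summed), which goes against the label, although a 3' count may fall outside a deleted stretch and then checks nothing. Directions are therefore given for the libraries as labelled. By marker UMIs, 84.3% and 90.01% of kept cells carried CD3 transcripts without B cell transcripts (T cells), and the natural killer gene Ncr1 had 64 and 16 UMIs in all of them. A further 9.57% and 7.08% were B cells and 3.57% and 0.307% progenitor B cells. The sort left out cells with Ncr1, so its count does not bear on the label. The natural killer list (Ncr1, Klrb1c, Eomes, Gzma and Klra8) had 7514 and 8603 UMIs, in 45.2% and 38.2% of kept cells. By the CD3 and B cell markers the labelled cell type was not borne out for most cells. The libraries shared 27 barcodes, none of them in a dividing cell of both.

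Promoter sequences are shown because the members are described together and range, further on, from strongly uneven to nearly even across the cycle. RefSeq (GRCm38.p6) windows from 250 bases before to 50 bases after a start were held for 35 members, as 37 windows, and for 32851 windows in all. Tpx2, Kif20a, Ccna2, Smc4 and Aurkb had no entry. The letters CCAAT, on either strand, were in 78.4% of member windows and 37.4% of all windows, and TTTGAA in 78.4% and 17.9%. TTTAAA was in 24.3% and 13.2%. Each window counted once per motif, and matches of different motifs could overlap. CCAAT together with TTTGAA or TTTAAA occurred in 73.0% of member windows against 10.7% of all, while Nuf2, Nusap1 and Tacc3 held none of the 3. A match is a description of letters, not a binding site. The 100 bases before the outermost annotated start of 6 members follow, 5′ to 3′ on the gene's own strand, with the motifs (or their reverse complements ATTGG and TTCAAA) in capitals. They were picked after the values were seen, to span members from those strongest late in division (Cdc20, Cenpf) to those closer to even across it (Kif11, Top2a).
Cdc20: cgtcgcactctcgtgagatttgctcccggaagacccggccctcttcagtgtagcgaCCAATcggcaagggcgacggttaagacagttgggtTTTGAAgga
Cenpf: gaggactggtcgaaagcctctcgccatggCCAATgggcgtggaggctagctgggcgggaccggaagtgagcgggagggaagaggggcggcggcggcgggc
Cks2: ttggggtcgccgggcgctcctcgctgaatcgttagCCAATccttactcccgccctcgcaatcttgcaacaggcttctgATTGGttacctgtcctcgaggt
Hmgb2: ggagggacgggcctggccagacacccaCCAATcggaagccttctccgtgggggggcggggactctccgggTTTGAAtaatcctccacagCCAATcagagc
Kif11: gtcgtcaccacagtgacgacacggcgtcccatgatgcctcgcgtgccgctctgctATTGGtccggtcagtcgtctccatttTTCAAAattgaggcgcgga
Top2a: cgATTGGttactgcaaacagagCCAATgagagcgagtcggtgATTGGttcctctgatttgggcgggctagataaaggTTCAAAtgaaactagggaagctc
The Cdc20 window is chr4:118437353-118437452 on the minus strand, Cenpf chr1:189688087-189688186 (minus) and Cks2 chr13:51645132-51645231 (plus). Hmgb2 is chr8:57511743-57511842 (plus), Kif11 chr19:37376282-37376381 (plus) and Top2a chr11:99024190-99024289 (minus). Cks2 had CCAAT boxes and no TTTGAA or TTTAAA in its 300-base window, and in Cenpf those letters lay outside the printed stretch.

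A cell was called dividing when Mki67, the Ki-67 antigen of the mitotic chromosome surface, and Top2a, the topoisomerase that untangles replicated DNA, together had at least 4 UMIs. By this gate 375 of 6704 T cells were dividing in the Irf4-/- labelled library (5.59%, exact Clopper-Pearson interval 5.06 to 6.17) and 256 of 11131 in the WT labelled one (2.30%, 2.03 to 2.60). The ratio of the shares was 2.43-fold (2.07 to 2.86). T cells of the library labelled Irf4-/- were deeper, with medians of 9920 and 7263 UMIs. After each cell was thinned to 2000 UMIs, leaving out 35 and 71 shallower cells among all kept cells, 7.07% and 3.72% of T cells still had at least 1 UMI of the gate genes, and 4.88% and 2.16% had at least 5 of the 40 members. At this gate of 1 UMI the log2 ratio of the T cell shares was 0.93 thinned and 0.96 unthinned (983 and 837 cells, a setting added after the data were seen), against 1.28 at the gate of 4 UMIs.

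Among T cells with alpha-beta receptor transcripts, 6.37% and 2.89% were dividing. Gamma-delta T cells had 33 of 783 and 18 of 1268 dividing cells, or 4.22% and 1.42%, a log2 ratio of 1.57 (0.70 to 2.48). B cells had nearly even shares, 5.13% (39 of 761) and 4.80% (42 of 875), and the interval of their ratio ran from 0.67- to 1.69-fold. Progenitor B cells had shares of 21.8% (62 of 284) and 18.4% (7 of 38), with intervals of 17.2 to 27.1% and 7.74 to 34.3%. The progenitor B share of the library labelled WT rests on 7 cells, and without the 2% of cells with most UMIs it was 1 of 32. Whether the genotype ratio differs between T and B cells was not tested, since each genotype is 1 library.

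**Figure D1:**
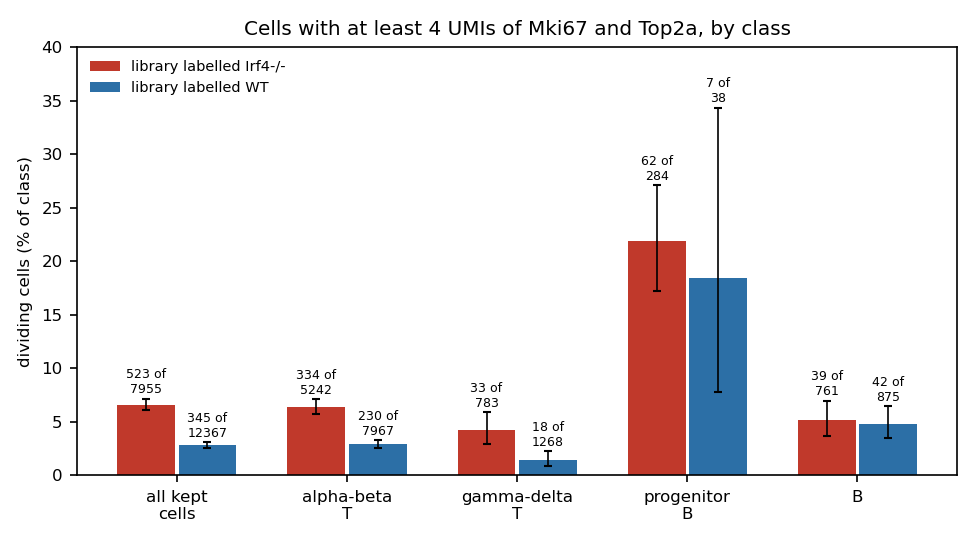
Share of cells with at least 4 UMIs of Mki67 and Top2a together (% of the class, vertical axis) in 5 populations of kept cells, red for the library labelled Irf4-/- and blue for WT; bars are the observed shares, whiskers exact 95% binomial intervals and the text the cell counts. Alpha-beta T cells stood at 6.37% and 2.89% and gamma-delta T cells at 4.22% and 1.42%, while the intervals of B cells (5.13% and 4.80%) overlapped.

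Shares were higher in the library labelled Irf4-/- at every level of the gate genes, with overlapping intervals from 10 to 39 UMIs. Of T cells, 464 and 463 had 1 UMI of Mki67 or Top2a (6.92% and 4.16%), and 144 and 118 had 2 or 3. Between 4 and 9 UMIs there were 90 and 40 cells (1.34% and 0.359%), and at 80 or more 80 and 25 cells (1.19% and 0.225%). Cells near the gate, with 4 to 9 UMIs, made up 24.0% and 15.6% of dividing T cells. Dividing T cells had a median of 33 of the 40 members detected in each library, against 3 in other T cells, at median depths of 21370 and 16270 against 9726 and 7216 UMIs.

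**Figure D2:**
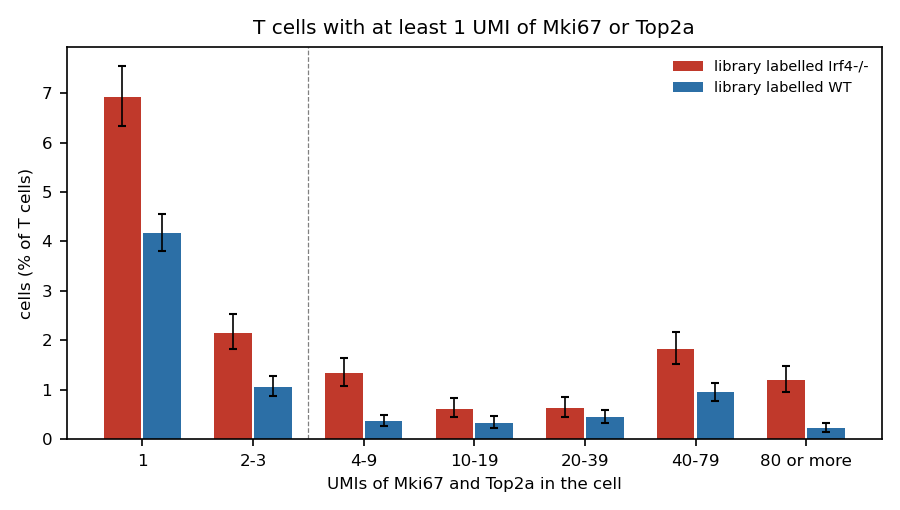
T cells by their UMIs of Mki67 and Top2a (horizontal axis, classes of UMIs) as a percentage of all T cells of the library (vertical axis), with exact 95% binomial whiskers and a dashed line at the gate of 4 UMIs; cells with 0 UMIs are not drawn. The red bars (library labelled Irf4-/-) are above the blue ones in each class, from 6.92% and 4.16% at 1 UMI to 1.19% and 0.225% at 80 or more.

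Cdk1 and its partners, the engine of mitotic entry, were higher in T cells of the library labelled Irf4-/-. Over all T cells 34 of the 40 members were at least 1.5-fold higher and none 1.5-fold lower, where 6.37% of the 13385 genes with at least 20 UMIs were 1.5-fold higher and 4.8% lower. The members' median log2 ratio was 0.87, against 0.01 over those genes. Cdk1 had 1719 and 1049 UMIs, a log2 ratio of 0.98 (0.86 to 1.09). Ccna2, cyclin A2 of S phase and G2, stood at 18.1 and 8.95 CPM (1.02, 0.89 to 1.15). The mitotic cyclins Ccnb1 (9.46 and 5.15 CPM, 0.88) and Ccnb2 (21.2 and 11.8, 0.85) were close to each other in ratio. Cks2, a small Cdk-binding subunit whose promoter is shown above, had 53.9 and 33.6 CPM and the lowest ratio of the 5, 0.68 (0.61 to 0.75).

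All 3 mitotic kinases were higher. Aurkb, the catalytic subunit of the chromosomal passenger complex, had 839 and 490 UMIs (log2 ratio 1.04, 0.88 to 1.20), and its partners Birc5 (survivin) and Cdca8 (borealin) had ratios of 0.99 and 0.80. Plk1, the polo-like kinase, had 9.91 and 5.61 CPM (0.82), and Aurka, the centrosomal Aurora kinase, 5.77 and 3.51 (0.72). The intervals of Aurkb and Plk1 overlapped, so their order is not resolved.

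The spindle checkpoint split. Bub1 (7.59 and 3.53 CPM, log2 ratio 1.10), Bub1b (15.2 and 7.33, 1.05) and Ttk (3.67 and 2.01, 0.87), kinases or kinase-like proteins that hold anaphase back, were past 1.5-fold. Bub3, the WD-repeat protein that brings Bub1 to kinetochores, had 5937 and 6889 UMIs, or 81.2 and 78.5 CPM, and its interval included 0 (0.05, -0.00 to 0.10). Of the genes tied to the anaphase-promoting complex, Cdc20, its activator, had 15.5 and 9.83 CPM (0.66), Ube2c, its ubiquitin-conjugating enzyme, 51.0 and 28.7 (0.83), and Cdca3, known as one of its substrates, 19.6 and 10.2 (0.94).

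At the kinetochore, Nuf2 had the highest ratio of the 40 members, with 649 and 331 UMIs and a log2 ratio of 1.24 (1.04 to 1.43). Its partner in the same complex, Ndc80, was below 1.5-fold, at 16.7 and 12.4 CPM (0.42, 0.30 to 0.54), and the intervals of the pair did not overlap. The motor Cenpe (0.96) and the large coiled-coil protein Cenpf (0.92) were past 1.5-fold. Cenpa, the histone H3 variant that marks centromeres, was not, at 50.5 and 38.1 CPM (0.41, 0.34 to 0.48).

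The 8 spindle members were all past 1.5-fold, over a range from 0.70 to 0.995. Kif11, the motor that keeps the spindle bipolar, had 27.5 and 13.8 CPM (log2 ratio 0.995, 0.89 to 1.10), and Tpx2, the activator of Aurka, 29.9 and 15.1 (0.98). Ckap2 (0.94), Hmmr (0.91), Nusap1 (0.91) and Tacc3 (0.82), which bind spindle microtubules, lay between these and Ckap2l (0.72) and the microtubule depolymerase Kif2c (0.70).

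Of the 5 cytokinesis members, Anln, the scaffold of the contractile ring, had 6.29 and 3.10 CPM (log2 ratio 1.02), Kif20a 5.76 and 3.08 (0.90) and Ect2, the activator of RhoA at the cleavage site, 7.45 and 4.10 (0.86). The kinesins Kif20b (0.37) and Kif23 (0.27, 0.18 to 0.37) were under 1.5-fold. Among chromosome proteins, Top2a had 136.8 and 68.0 CPM (1.01) and Mki67 115 and 63.1 (0.87). Hmgb2, a DNA-bending protein of chromatin, had 684.8 and 429.7 (0.67), and Smc2, a core subunit of condensin, 73.9 and 48.5 (0.61). Smc4, the partner of Smc2 in condensin, was the only member below 0 in T cells, with 321 and 404.8 CPM (-0.33, -0.36 to -0.31). The 34 members past 1.5-fold kept their sign in each of 12 other settings, where 28 to 34 were past 1.5-fold. Of those settings, the gene minimums of 1 and 100 UMIs could not change a member's ratio. But 31 turned below 0 once dividing and other cells were set to the same shares. The gate for dividing cells uses 2 members, and most members had most of their UMIs in those cells. That outcome was thus largely set in advance and is a description. At 2000 UMIs per cell 28 were past 1.5-fold, and 38 of 40 were above 0.

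**Figure D3:**
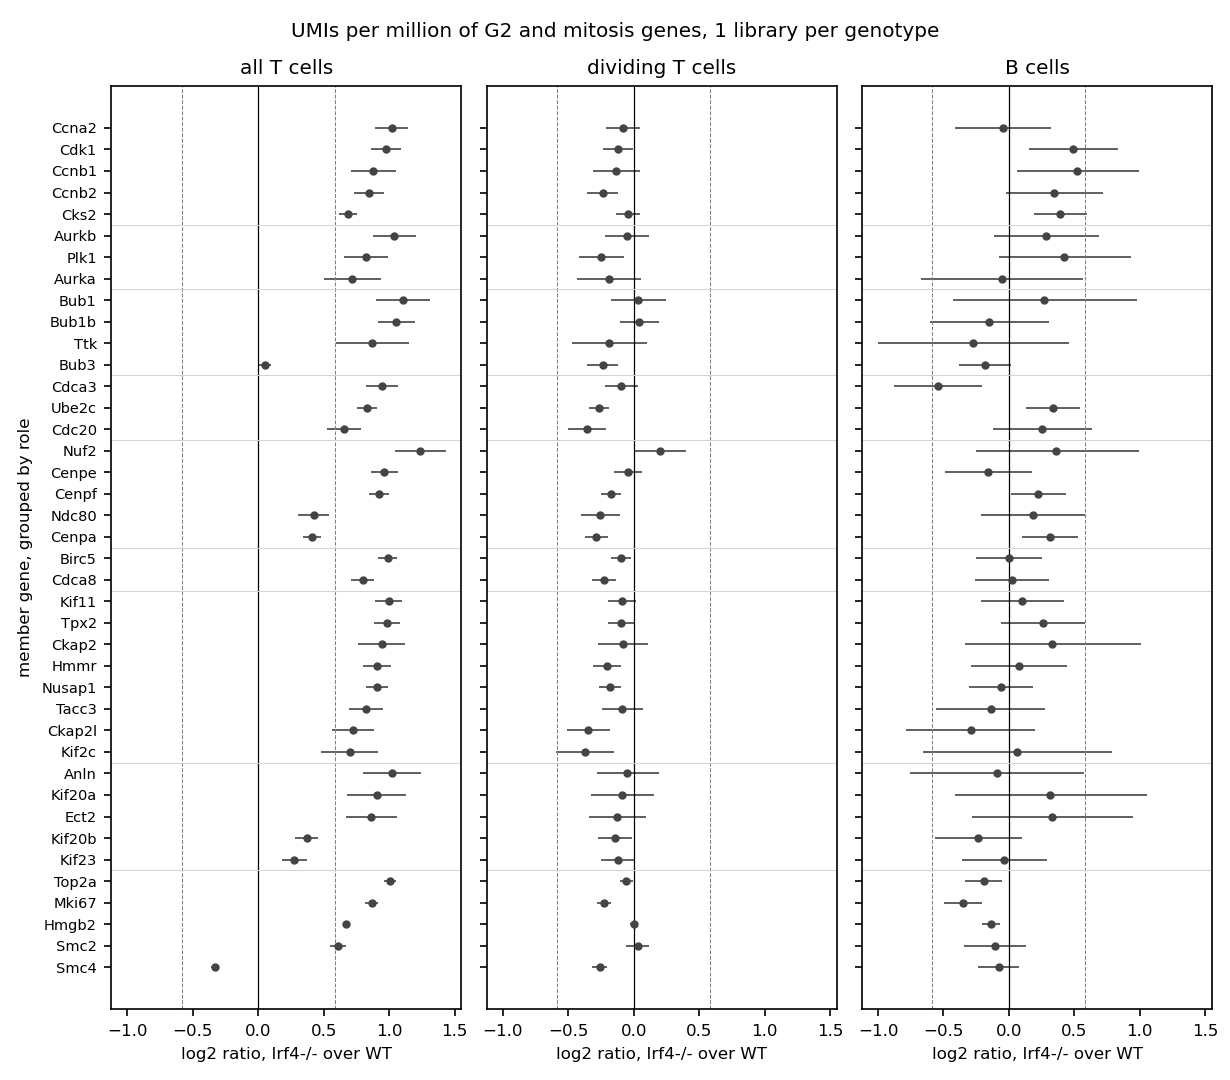
Log2 ratio of levels in CPM between the libraries, Irf4-/- label over WT label (horizontal axis), for each of the 40 members (vertical axis, grouped by role with grey lines between roles) in all T cells, dividing T cells and B cells; points are observed ratios, whiskers exact 95% intervals for counting error and dashed lines 1.5-fold. In all T cells 39 points lie above 0 and Smc4 below, in dividing T cells 36 lie below 0 and none passes 1.5-fold, and in B cells 21 lie above 0 and none passes 1.5-fold.

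The 6 members under 1.5-fold were among the 9 with the lowest share of UMIs from dividing cells. Across the 40 members, the median share of a gene's T cell UMIs that came from dividing cells was 94.5% and 89.8%. For Smc4 it was 25.3% and 11.1%, and for Bub3 24.7% and 13.9%. Kif20b (59.9% and 39.5%), Kif23 (73.3% and 44.6%), Cenpa (71.1% and 53.3%) and Ndc80 (74.6% and 55.3%) came next together with Smc2, Hmgb2 and Cks2. At the other end stood Ccna2, with 99.2% and 98.2%, and Hmmr, with 99.0% and 99.1%. The share itself depends on how many dividing cells a library holds, and it was higher in the library labelled Irf4-/- for 39 of the members.

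**Figure D4:**
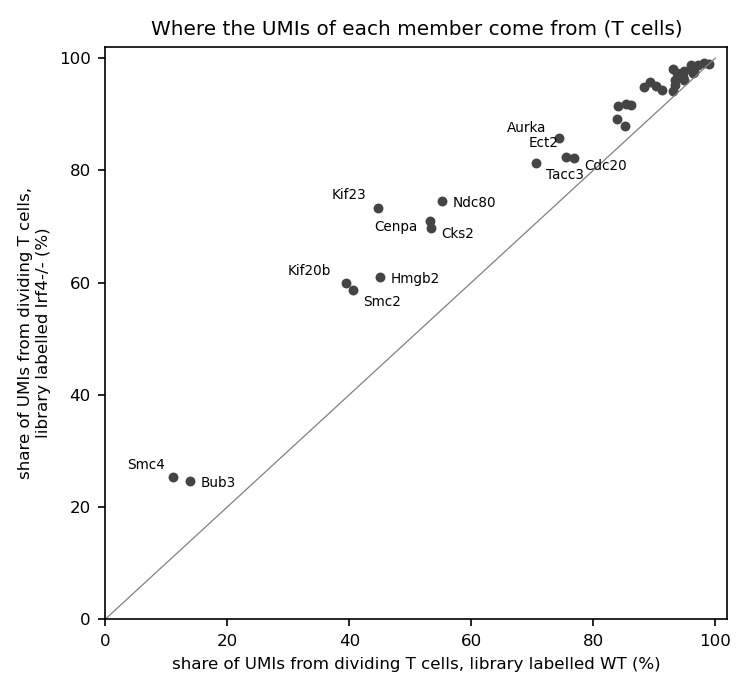
Share of each member's T cell UMIs that fell in dividing T cells (%), library labelled WT on the horizontal axis and Irf4-/- on the vertical axis, 1 point per member with members under 80% in WT named and a grey line of equal shares. Smc4 (11.1% and 25.3%, WT first) and Bub3 (13.9% and 24.7%) lie lowest, and most members lie near the upper right corner.

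In T cells without a UMI of Mki67 or Top2a (5721 and 10294 cells), 35 members had at least 20 UMIs, and their median log2 ratio was 0.06. Of them 21 were above 0 and 14 below. A ratio of 1.5-fold was passed by 5 higher and 2 lower, where 4.45% and 4.85% of genes were. The 5 higher had few UMIs: Hmmr (14 and 8), Ccnb2 (41 and 32), Anln (44 and 37), Cdk1 (58 and 49) and Aurkb (24 and 21). Smc4 had 272.8 and 381 CPM there (-0.48, -0.51 to -0.45), and it was also lower in dividing T cells, at 727 and 870.3 (-0.26, -0.32 to -0.20). Kif23 had 410 and 900 UMIs, or 7.14 and 11.6 CPM (-0.70, -0.87 to -0.52), although over all T cells its ratio was above 0. Ndc80 (4.34 and 5.68 CPM, -0.39) and Cenpa (15.6 and 17.8, -0.18) were lower in these cells as well. Hmgb2 was higher, at 277.9 and 235.7 (0.24, 0.21 to 0.27). Bub3 had 69.0 and 71.0, and its interval included 0. Nuf2 had 4 and 17 UMIs in these cells of 649 and 331 over all T cells, where Ndc80 had 249 and 442 of 1219 and 1091.

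Setting the dividing and other T cells to the same shares in both libraries, a setting added after the data were seen, moved the members' median log2 ratio in T cells from 0.87 to -0.19, with 3 members above 0 and none past 1.5-fold. Since most members had most of their UMIs in dividing cells, this value was largely fixed by the ratios within them. Within dividing T cells alone 36 of 40 members were below 0, and none was 1.5-fold higher or lower, where 4.14% and 6.14% of 10385 genes were. The median was -0.12, against -0.05 over all those genes, and the range ran from -0.37 to 0.20. The median was 0.069, with 14 members below 0, in T cells with at least 8 UMIs of 62 other mitosis genes. That gate took 996 and 759 T cells, of which only 367 and 253 also passed the gate of Mki67 and Top2a. Mki67 had 469.6 and 476.9 CPM in this wider set, against 1003 and 1174 in the dividing T cells. Most of its cells are therefore not shown to be dividing, and its median is not a value within dividing cells. The part of the added cells in this shift was not tested. The median was 0.038 at 2000 UMIs per cell and a gate of 1 UMI, so its direction did not hold across settings. The gate itself uses Mki67 and Top2a, and without them the median was also -0.12 over 38 members.

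Differences in these cells were small for most members. Hmgb2 had 3735 and 3736 CPM (interval of the log2 ratio -0.03 to 0.03), and Cks2 336 and 346 (-0.04, -0.13 to 0.05). Cdc20 had 114 and 146 (-0.36, -0.50 to -0.21), Kif2c 49.6 and 64.2 (-0.37, -0.59 to -0.15) and Ckap2l 90.8 and 116 (-0.35). These were the lowest ratios, followed by Cenpa (-0.29), Ube2c (-0.26), Smc4 (-0.26), Ndc80 (-0.26), Plk1 (-0.25) and Ccnb2 (-0.24). Of the 13 members listed as late, known to peak in mitosis (Ccnb1, Ccnb2, Cdc20, Plk1, Aurka, Cenpa, Cenpe, Cenpf, Kif20a, Kif2c, Ube2c, Hmmr and Tpx2), all were below 0 with a median of -0.20. The intervals of 8 lay below 0 (61.5%, against 47.5% of all 40 members and 13.0% of all genes tested). Cells near the gate made up 24.0% and 15.6% of these dividing T cells, at median depths of 21370 and 16270 UMIs. The part of gate and depth in these ratios was not tested. In the wider set of T cells taken by other mitosis genes 8 of the 13 were below 0, with the interval of Cenpa below 0 and that of Cenpe above it. Most cells of that set did not pass the gate of Mki67 and Top2a. Within the dividing T cells, Nuf2 was the only member whose interval lay above 0, at 77.9 and 67.7 (0.20, 0.00 to 0.40).

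To place members along the cycle, dividing T cells of each library were ranked by CPM of 38 replication genes and cut into 3 groups of equal size (125 cells each, and 86, 85 and 85). The median replication level was 1430 CPM in the low group and 7553 in the high group of the library labelled Irf4-/-, and 1062 and 8225 in WT. Over both libraries 36 members were higher in the low group and 4 in the high group. Ccnb1 was the most uneven, at 186 CPM in the low and 17.7 in the high group of the library labelled Irf4-/- (log2 ratio 3.396, 2.97 to 3.85) and 176 and 17.4 in WT (3.34). Cenpa followed with 3.25 and 2.88, Cdc20 with 2.98 and 2.81, Ube2c with 2.75 and 2.86, Ccnb2 with 2.31 and 2.17 and Cenpf with 2.26 and 2.22.

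Other members were closer to even across the groups. Top2a had 1169 and 1093 CPM in the low and high groups of the Irf4-/- labelled library (0.10) and 1206 and 1176 in WT (0.04). Kif11 had ratios of 0.36 (0.20 to 0.52) and 0.40 (0.19 to 0.62), with both intervals above 0. Aurkb, Bub1, Smc2 and Ndc80 were the 4 members higher in the high-replication group in both libraries, by small amounts, from -0.01 to -0.39, and only the interval of Smc2 in the library labelled WT excluded 0. Cenpa and Ndc80, both of the kinetochore, therefore sat at opposite ends. The members' order was alike in the libraries, with Pearson 0.97 and Spearman 0.94 over 40 genes, given as a description since genes of the same cells share their libraries and depth.

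**Figure D5:**
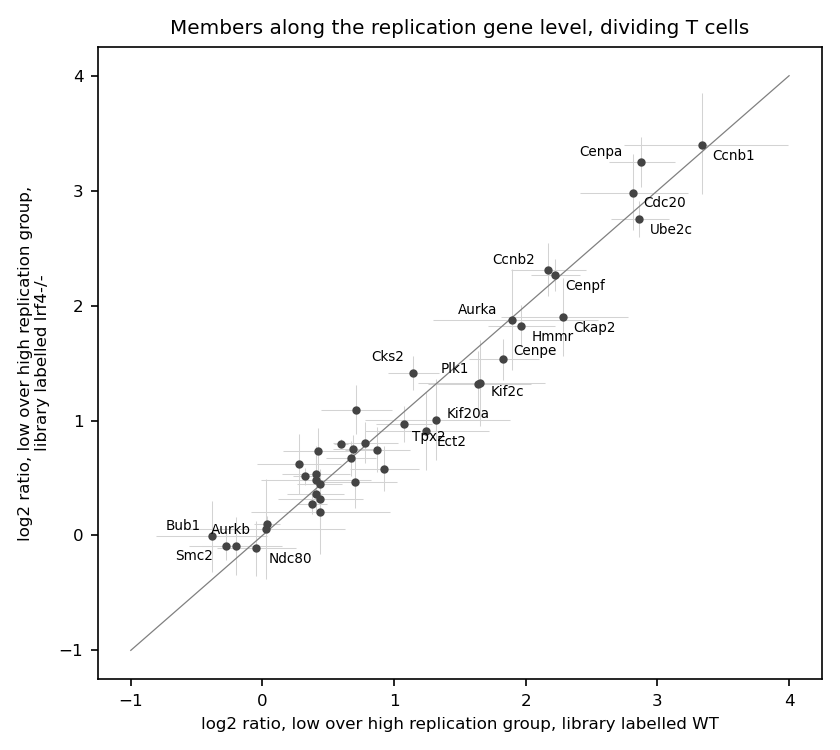
Log2 ratio of CPM in dividing T cells with the lowest over those with the highest replication gene level, library labelled WT (horizontal axis) against Irf4-/- (vertical axis), 1 point per member with exact 95% intervals in light grey and a grey line of equality; members above 1 or below 0 in WT are named. Ccnb1 (3.34 and 3.396, WT first), Cenpa, Cdc20 and Ube2c lie at the top and Bub1, Smc2, Aurkb and Ndc80 at the bottom in both libraries.

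Gamma-delta T cells had fewer UMIs behind each gene and a wider spread. Of the members 32 were 1.5-fold higher and none 1.5-fold lower (6.0% and 4.16% of 10525 genes), with a median log2 ratio of 0.92. Top2a had 815 and 365 UMIs (1.34, 1.16 to 1.52), Ccna2 115 and 52 (1.33) and Anln 35 and 11 (1.85, 0.84 to 2.98). Ccnb1, with 42 and 39 UMIs, had an interval that included 0 (0.29, -0.37 to 0.96), and Smc4 was again lower, at 377 and 509.7 CPM (-0.43). When each cell was given the class of its highest mean marker level in place of UMI gates, the gamma-delta median was 0.19 over 36 members. The 33 and 18 dividing cells among them had a median of -0.30, with 35 members below 0, 2 members 1.5-fold higher and 11 lower, where 13.4% and 12.3% of genes were. In the library labelled WT 1 of those 18 cells held 20 or more UMIs of erythroid genes. The erythroid list had 2 and 7284 UMIs in the dividing gamma-delta cells, and without cells of 20 or more myeloid or erythroid UMIs the median over all gamma-delta T cells was 1.03.

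In alpha-beta T cells the median was 0.77 with 33 members 1.5-fold higher and none lower (6.25% and 4.62% of genes). The observed share of dividing cells was higher in the library labelled Irf4-/- in each group by CD8 transcripts. Among alpha-beta T cells with 2 or more UMIs of Cd8a and Cd8b1, 8.33% and 3.29% were dividing. With 1 UMI these were 4.22% and 1.64%, with overlapping intervals (2.82 to 6.05% and 0.824 to 2.92%). With none they were 3.28% and 2.11%, also with intervals that overlapped (2.44 to 4.32% and 1.497 to 2.88%). Cells with none had median depths of 8993 and 6387 UMIs, and the part of depth was not tested. With the CD8 groups set to the same shares the median over alpha-beta T cells was 0.84. T cells in neither the alpha-beta nor the gamma-delta class numbered 679 and 1896 (8.54% and 15.3% of kept cells), with 8 dividing cells in each library (1.18% and 0.422%). Only 27 members had at least 20 UMIs there, with a median of 0.29. Of these 10 were 1.5-fold higher and 1 lower, where 552 and 507 of 10498 genes were.

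In B cells none of the 40 members was 1.5-fold higher or lower, where 7.9% and 6.51% of 9721 genes were. Of the members 21 were above 0 with a median log2 ratio of 0.04. Intervals lay above 0 for 15.0% and below 0 for 10.0% of members, near the 10.8% and 10.5% of all genes. The 6 with intervals above 0 were Cdk1 (198 and 117 UMIs, 0.49, 0.15 to 0.83), Ccnb1 (109 and 63, 0.52, 0.06 to 0.99), Cks2 (520 and 328, 0.39), Ube2c (486 and 319, 0.34), Cenpa (459 and 306, 0.31) and Cenpf (450 and 319, 0.23). Cdca3 (136 and 164, -0.54, -0.88 to -0.20), Mki67 (195 and 249.6 CPM, -0.35), Top2a (225 and 257.6, -0.19) and Hmgb2 (914.9 and 1007, -0.14) had intervals below 0. Assigning classes by the highest marker level gave a median of 0.35 in B cells.

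Progenitor B cells, marked by the surrogate light chain and recombination genes, had 31 members below 0 and a median of -0.28, with 2 members 1.5-fold higher and 5 lower (21.6% and 11.6% of 7836 genes). Mki67 had 665 and 962.9 CPM (-0.53, -0.72 to -0.35) and Aurka 47.3 and 91.2 (-0.95). Such intervals take UMIs as independent, while 7 dividing cells held 96.5% of this class's member UMIs in the library labelled WT. That library held 38 progenitor B cells, and without the 2% of cells with most UMIs the median turned to 1.32. It was also above 0 at 2000 UMIs per cell (0.37) and with classes by highest marker level (0.067). Myeloid genes had 1973 and 0 UMIs in the dividing progenitor B cells, where 1 cell of the library labelled Irf4-/- held 20 or more. Over the whole class mature B cell genes had 1303 and 138.5 CPM, in 79.2% and 42.1% of cells, and Dntt, the template-free DNA polymerase of early progenitors, had 12.9 and 98.0 CPM. The part of this make-up in the ratios was not tested.

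Within each library, dividing cells of the B lineage had higher levels of most members than dividing T cells. In the library labelled Irf4-/- the 62 dividing progenitor B cells were above the 375 dividing T cells for 38 of 40 members, with a median log2 ratio of 0.51. Ccnb1 had 174 and 81.1 CPM in these 2 sets (1.10, 0.87 to 1.33), Ccnb2 364.9 and 180 (1.02) and Hmgb2 5969 and 3735 (0.68). The 39 dividing B cells were above T cells for 34 members there (median 0.31), and in the library labelled WT 42 dividing B cells were above for 35 (median 0.43). The 7 dividing progenitor B cells there were above for 29 (median 0.29). In WT Ccnb1 had 136 and 88.9 CPM in B and T cells (0.62, 0.20 to 1.01). Dividing B cells were shallower, at medians of 14320 and 9653 UMIs against 21370 and 16270 in dividing T cells. Dividing progenitor B cells had medians of 14430 and 30180 UMIs. Cells near the gate, with 4 to 9 UMIs, made up 24.0% and 15.6% of dividing T cells. They made up 12.8% and 14.3% of dividing B cells and 9.68% and 0% of dividing progenitor B cells. The part of depth and of the fixed gate in these ratios was not tested.

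Outside these classes, 119 and 187 cells carried both CD3 and B cell transcripts. Their 20 and 22 dividing cells had a member median of 0.64, with 23 members 1.5-fold higher and none lower (13.0% and 13.2% of genes). Progenitor B genes had 497.7 and 128.9 CPM in these cells (in 85.0% and 22.7% of them) and mature B genes 851.8 and 1884, and their part in the ratios was not tested. A further 87 and 136 cells carried neither set, with 27 and 18 dividing cells, and there the myeloid list had 31330 and 13260 CPM and the erythroid list 31750 and 26630. Over all kept cells the median was 0.97, with 34 members 1.5-fold higher and none lower (10.4% and 3.86% of 14117 genes), and it was 0.55 with the classes set to the same shares.

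Other cell cycle genes were taken from lists by role. Of 62 other mitosis genes 51 were 1.5-fold higher in T cells and none lower (6.37% and 4.8% of all genes tested), with a median log2 ratio of 0.83. Kif18b, Cenpi and Ncaph had the highest ratios over all kept cells (1.32, 1.26 and 1.21), and Cdc25b, Pttg1 and Ncapd3 the lowest (-0.07, -0.05 and 0.10). Of 38 replication genes 21 were 1.5-fold higher in T cells and none lower (6.37% and 4.8% of all genes tested), with a median of 0.60. They were led over all kept cells by Uhrf1 (1.14), Mcm10 (1.06) and Gins2 (1.03), with Gins4 (0.07), Rpa2 (0.07) and Gins3 (0.13) lowest. Within dividing T cells the medians of these lists were -0.10 and -0.03. No gene of either list was 1.5-fold higher or lower there, where 4.14% and 6.14% of all genes tested were.

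Of 25 regulators of the program, 9 were 1.5-fold higher in T cells and none lower (6.37% and 4.8% of all genes tested), with a median of 0.24. The repressor E2f7 (1.36), the checkpoint kinase Chek1 (1.12) and E2f1 (0.85) had the highest ratios over all kept cells, and Rbl2 (-0.06), Lin54 (-0.03) and Lin37 (0.03), subunits of the DREAM complex, the lowest. Among 12 measured of 13 quiescence genes the T cell median was -0.28, with 2 genes 1.5-fold higher and 1 lower (6.37% and 4.8% of all genes tested). Over all kept cells Cdkn1a (251 and 80 UMIs, 1.85, with 33 and 16 of these in T cells), Cdkn2c (0.87) and Btg1 (0.20) had the highest ratios, and the inhibitors Cdkn1c (-0.51) and Cdkn1b (127.7 and 172 CPM, -0.43) and the antiproliferative gene Btg2 (-0.38) the lowest.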

How the data were processed

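Single-cell 3' expression was measured in 2 libraries, 1 per genotype. The authors' deposited matrices hold UMI counts as whole numbers, and per the file headers the software was Cell Ranger 6.1.1. The build was mm10, per the submitters' processing notes. Barcodes were kept with at least 500 genes, 1000 UMIs and under 10% mitochondrial UMIs, which left 97.6% and 97.1% of barcodes (82195217 and 94374447 UMIs). No doublet caller was run, and cells with T and B markers were kept apart. T cells had at least 4 CD3 UMIs and at least 4 times as many as of Cd79a and Cd79b, B-lineage cells the reverse. Progenitor B cells had at least 3 UMIs of Vpreb1, Vpreb2, Igll1, Dntt, Rag1 and Rag2. Alpha-beta and gamma-delta T cells had at least 2 UMIs of Trac or Trdc and more of it than of the other. These limits were set after the files were seen. Counts were summed per library and class and scaled to 1000000 (CPM) with Python 3.11.15, NumPy 2.4.6, SciPy 1.17.1 and pandas 2.3.3. Log2 ratios carry exact conditional binomial intervals at 95%, which take UMIs as independent. They were checked only on simulated counts drawn as independent. That check cannot show whether they hold where few cells carry most UMIs of a gene. Genes needed 20 UMIs over both libraries. All 40 members were named, and of other lists the 3 highest and 3 lowest ratios over all kept cells among genes with at least 100 UMIs. The members and lists were chosen with earlier results of these data known. Alternatives changed the scaling, cell filter, gene minimum, class and dividing gates, depth, class mix and cells with most UMIs.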

Additional observations from a re-analysis of the deposited data

Results flagged for a closer look

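Members whose counting interval lay above 0 in T cells and below 0 in a B-lineage class were looked at again. With 1 library per genotype the difference between classes was not tested, and the intervals cover counting error only. In B cells these were Mki67 (log2 ratio -0.35 against 0.87 in T cells), Top2a (-0.19 against 1.01), Cdca3 (-0.54 against 0.94) and Hmgb2 (-0.14 against 0.67). In progenitor B cells they were Mki67 (-0.53), Ccnb1 (-0.54 against 0.88), Aurka (-0.95 against 0.72), Bub1 (-0.82 against 1.10), Cenpe (-0.74 against 0.96) and Cdc20 (-0.62 against 0.66). The others there were Cdca8 (-0.35 against 0.80), Nusap1 (-0.61 against 0.91), Ube2c (-0.35 against 0.83), Smc2 (-0.36 against 0.61) and Cks2 (-0.34 against 0.68). The progenitor B values rest on 38 cells of the library labelled WT, of which 7 were dividing.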

How the results depend on the processing

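No paired analysis was possible because each genotype has 1 library and the labels carry no replicate numbers. The members' median log2 ratio (T 0.87, all kept cells 0.97, alpha-beta T 0.77, gamma-delta T 0.92, B 0.04, progenitor B -0.28) turned in T cells to -0.19 with dividing and other cells at the same shares (chosen after seeing the data, as were the shares without the cells with most UMIs, the unthinned gate of 1 UMI, the reweighted CD8 groups and leaving out cells with myeloid or erythroid UMIs), and in progenitor B cells to above 0 under 3 settings given next. The stricter cell filter gave 1.05 over all kept cells, 0.95 in T, 0.85 in alpha-beta T and -0.086 in progenitor B. Without the 2% of cells with most UMIs these were 1.18, 1.07, 1.01 and 1.32. Classes by highest marker level gave 0.89 in alpha-beta T, 0.19 in gamma-delta T, 0.067 in progenitor B and 0.35 in B. Doubled marker minimums gave 0.55 in alpha-beta T and -0.40 in progenitor B. Thinning gave 1.05 over all kept cells and 0.37 in progenitor B, and reweighted classes 0.55 over all kept cells and 0.78 in T.

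Within dividing T cells (-0.12) the median was -0.075 centred on all genes, -0.058 at a gate of 8 UMIs and -0.052 at 4 UMIs per 10000. It was 0.069 in the wider set of T cells taken by other mitosis genes, and 0.038 thinned. Over all dividing cells (-0.06) the last pair gave 0.16 and 0.21. The log2 ratio of dividing shares (1.24 over all kept cells, 1.28 in T and 1.14 in alpha-beta T) was 0.92, 0.93 and 0.87 when thinned with a gate of 1 UMI, and 0.92, 0.96 and 0.87 at that gate without thinning. Without the cells with most UMIs it was 1.48, 1.58, 1.47 and, in progenitor B, 2.58. For the share of cells past the gate of other mitosis genes it was 1.04 over all kept cells. The cause of these shifts was not tested. The other values (99 under planned settings and 21 under added ones) stayed within the interval of the reported value. For a median, that interval was taken from the members' ratios alone and not from counting error. Members of the same 2 libraries are not replicates, so staying within it is a description. The gene minimums could not move the T cell median. Of the 34 single members past 1.5-fold in T cells none turned under 12 settings, among them the gene minimums, which could not change a ratio. With dividing and other cells at the same shares 31 did: Kif2c -0.50, Ckap2l -0.44, Ube2c -0.36, Plk1 -0.35, Mki67 -0.32, Cdc20 -0.31, Ccnb2 -0.31, Hmmr -0.31, Ttk -0.30, Nusap1 -0.30, Cdca8 -0.29, Cenpf -0.27, Ccnb1 -0.26, Aurka -0.25, Birc5 -0.20, Kif11 -0.20, Ccna2 -0.19, Cdca3 -0.19, Tpx2 -0.19, Cdk1 -0.17, Kif20a -0.17, Aurkb -0.13, Top2a -0.13, Cenpe -0.12, Ckap2 -0.11, Ect2 -0.098, Tacc3 -0.097, Bub1 -0.076, Bub1b -0.068, Cks2 -0.043, Anln -0.036. Most members had most of their UMIs in dividing cells, so the setting of equal shares largely returned the ratios within them and is a description. Few dividing cells limit the gamma-delta and progenitor B values. No source used here states the annotation release. Anln overlaps Gm48646 on the same strand, and whether reads were split between them was not tested.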
